A study of Mus musculus with 52 samples.

Results

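Fgf5 and Otx2 are known as genes that switch on or rise as mouse embryonic stem cells (mESCs) leave the naive state, and the enhancers that surround them are described here. They were located in the deposited table of non-redundant gene intervals, and every enhancer whose centre lay within 200 kb of either transcription start site (TSS) was taken from the deposited table for epiblast-like cells (EpiLCs) and from that for mESCs. That gave 23 enhancers of the 25370 in both tables. Of these, 6 EpiLC enhancers and 1 mESC enhancer lay around Fgf5, and 10 EpiLC enhancers and 6 mESC enhancers lay around Otx2.

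FGF5 is a secreted fibroblast growth factor, and in the early embryo its transcript is a classical marker of the post-implantation epiblast; in adult animals it is known as an inhibitor of hair growth. OTX2 is a paired-type homeodomain transcription factor that is needed for formation of the forebrain and midbrain, and that helps to redirect pluripotency factors to new enhancers as naive cells turn into EpiLCs. Enhancers are stretches of regulatory DNA that transcription factors bind and that can act on a promoter from a distance; when active they usually carry acetylation of histone H3 at lysine 27 (H3K27ac). Clusters of wide enhancers beside genes of cell identity are often called super-enhancers.

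The series consists of 52 chromatin immunoprecipitation sequencing libraries, 9 from EpiLCs, harvested at 48 h of differentiation, and 43 from naive mESCs grown with LIF and inhibitors of GSK3 and MEK1. The genotypes were pK27R (all H3 changed from lysine to arginine at position 27, with H3.3 knocked out and added back as the K27R form, 2 clones), cK27R (canonical H3 alone changed, 2 clones), SUZ12KO, an H3.3 knockout, the H3.3 knockout with wild-type H3.3 added back (pK27WT, 2 clones), and the ABE control line, all on a C57BL6/129Sv background. EpiLC libraries came from pK27R, SUZ12KO and ABE cells, with antibodies to H3K27ac and RNA polymerase II, and 1 EpiLC input had no stated genotype. The mESC libraries covered H3K27me2, H3K27me3, H3K27ac by a pair of antibodies, H3.3, RNA polymerase II, Med1 and input. The 34 groups of cell type, antibody and genotype had 1 library (16 groups) or 2 libraries (18 groups).

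The deposited tables hold the regions over which the authors compared these libraries, and 0 columns with a value per library, so ChIP signal at Fgf5 and Otx2 and its dependence on genotype were not analysed here and sequencing depth is unknown. The EpiLC table has 16576 rows and the mESC set has 8794 rows. The series' design text credits them to separate earlier studies. A difference between the tables can therefore not be told apart from a difference in how each set was defined. The region sets have no replicates, so counts below carry no error and no p-value, and are set beside the share of the 23745 named genes that reach the same count. Neighbouring genes share enhancers, so these genes are not independent of each other. Coordinates are mm10 and are counted from 1, and enhancer starts are uncertain by 1 bp. Enhancers are numbered along the chromosome from the lowest coordinate, separately in each table, as in Fgf5 EpiLC 2.

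The gene starts and a few enhancers on which the description turns are shown first, 5' to 3'. The first 2 sequences are the 300 bases from 250 before to 50 after the RefSeq start of each gene (build GRCm38.p6, the assembly called mm10), and both lie inside an EpiLC enhancer. No capitals occur in them because none of the 9 motifs searched for was present.
Fgf5 promoter (chr5:98253934-98254233, plus strand): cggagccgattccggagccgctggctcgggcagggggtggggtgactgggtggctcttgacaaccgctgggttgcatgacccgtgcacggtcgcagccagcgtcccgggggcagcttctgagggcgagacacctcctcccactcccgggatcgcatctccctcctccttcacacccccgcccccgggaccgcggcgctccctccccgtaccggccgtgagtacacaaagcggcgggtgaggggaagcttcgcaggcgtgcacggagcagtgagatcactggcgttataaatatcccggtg
Otx2 promoter (chr14:48667595-48667894, minus strand): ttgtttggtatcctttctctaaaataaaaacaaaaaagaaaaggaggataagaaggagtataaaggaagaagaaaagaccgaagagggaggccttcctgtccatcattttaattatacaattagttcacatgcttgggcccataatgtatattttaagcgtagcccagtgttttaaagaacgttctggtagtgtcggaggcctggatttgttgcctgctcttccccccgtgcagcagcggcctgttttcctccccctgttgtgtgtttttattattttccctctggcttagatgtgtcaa

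The next 5 are enhancer sequences read from the same assembly. Fgf5 EpiLC 2 and Fgf5 EpiLC 3 open the run of EpiLC enhancers downstream of Fgf5. Fgf5 mESC 1 is the single mESC enhancer of that window, and Otx2 EpiLC 2 is a distal EpiLC enhancer with no mESC counterpart. Of each of these the central 300 bases are given. The last is the stretch of 285 bases that Otx2 EpiLC 9 shares with Otx2 mESC 5. Capitals mark matches to the motifs OTX (TAATCC), POU (ATGCAAAT), SOX (ACAATG) and KLF (GGGTGTGG), on either strand.
Fgf5 EpiLC 2 centre (chr5:98284052-98284351, plus strand): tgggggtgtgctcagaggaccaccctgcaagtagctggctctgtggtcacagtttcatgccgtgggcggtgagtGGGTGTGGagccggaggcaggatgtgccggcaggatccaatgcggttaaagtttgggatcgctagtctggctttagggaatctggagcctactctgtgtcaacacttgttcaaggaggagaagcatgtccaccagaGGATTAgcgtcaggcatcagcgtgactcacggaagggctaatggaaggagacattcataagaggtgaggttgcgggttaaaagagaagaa
Fgf5 EpiLC 3 centre (chr5:98292652-98292951, plus strand): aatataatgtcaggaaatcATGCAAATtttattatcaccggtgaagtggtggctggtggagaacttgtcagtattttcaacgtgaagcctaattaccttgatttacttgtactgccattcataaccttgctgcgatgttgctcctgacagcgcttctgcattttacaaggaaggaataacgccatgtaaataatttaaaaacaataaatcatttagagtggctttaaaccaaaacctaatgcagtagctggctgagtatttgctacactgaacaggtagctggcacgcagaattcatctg
Fgf5 mESC 1 centre (chr5:98438702-98439001, plus strand): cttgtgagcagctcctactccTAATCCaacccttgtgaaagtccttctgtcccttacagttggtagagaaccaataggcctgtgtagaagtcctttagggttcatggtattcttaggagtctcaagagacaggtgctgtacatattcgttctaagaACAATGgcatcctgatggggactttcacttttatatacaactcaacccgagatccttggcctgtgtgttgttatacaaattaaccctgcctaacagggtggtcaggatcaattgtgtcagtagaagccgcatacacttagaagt
Otx2 EpiLC 2 centre (chr14:48553040-48553339, plus strand): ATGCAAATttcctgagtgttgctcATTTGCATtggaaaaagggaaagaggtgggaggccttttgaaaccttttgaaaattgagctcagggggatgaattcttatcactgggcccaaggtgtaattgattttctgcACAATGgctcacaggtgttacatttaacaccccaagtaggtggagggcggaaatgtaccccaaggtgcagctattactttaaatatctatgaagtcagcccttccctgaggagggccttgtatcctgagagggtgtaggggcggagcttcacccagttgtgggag
Otx2 EpiLC 9 shared with mESC 5 (chr14:48729967-48730251, plus strand): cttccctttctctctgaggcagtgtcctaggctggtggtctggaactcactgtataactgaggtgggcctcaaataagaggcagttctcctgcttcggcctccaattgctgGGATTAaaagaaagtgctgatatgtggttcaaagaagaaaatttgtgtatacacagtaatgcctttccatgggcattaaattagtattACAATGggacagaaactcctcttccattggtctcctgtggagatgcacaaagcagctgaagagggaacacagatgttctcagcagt

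Around Fgf5 (chr5:98254184-98277033, plus strand, 22850 bp, an exact RefSeq interval), the EpiLC enhancers formed a compact chain that began at the start site and ran downstream. Fgf5 EpiLC 1 (chr5:98251427-98257351) was 5925 bp wide and covered the TSS. The other 5 were centred at 30.0 kb (chr5:98281727-98286676), 38.6 kb (chr5:98290077-98295526), 48.4 kb (chr5:98301052-98304126), 56.6 kb (chr5:98307202-98314426) and 75.7 kb (chr5:98328777-98330951) downstream of the TSS. All 6 were thus centred at or downstream of the TSS and none upstream of it.

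The downstream chain lay beyond the gene. Its first enhancer began 4.69 kb past the 3' end of Fgf5, and the 5 together spanned 49.2 kb, of which they covered 22.9 kb (46.5%). Gaps between them ranged from 3075 bp to 14.35 kb, against a median gap of 48.15 kb between neighbouring EpiLC enhancers genome-wide. Fgf5 EpiLC 2 to Fgf5 EpiLC 5 were intergenic at their centres, between the end of Fgf5 and the start of Cfap299, a gene for a cilia- and flagella-associated protein. Fgf5 EpiLC 6 covered the start of Cfap299 (chr5:98329304-98802019, plus strand).

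These were wide regions for their table. Their widths were 5925, 4950, 5450, 3075, 7225 and 2175 bp in chromosome order, against a table median of 1750 bp and quartiles of 1085 and 2900 bp. All 6 were above the median and 5 of 6 above the upper quartile, and the widest, Fgf5 EpiLC 5, was matched or exceeded by 3.71% of EpiLC enhancers. Together they covered 28.8 kb, or 7.2% of the window, against a median of 7.4 kb per gene, and 10.1% of genes had as much. By number Fgf5 stood less far out, since 32.9% of genes had at least its 6 EpiLC enhancers within 200 kb, around a median of 4 and quartiles of 2 and 7. All 6 also lay within 100 kb, where 10.4% of genes had as many.

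The mESC table held 1 enhancer in the Fgf5 window. This enhancer, Fgf5 mESC 1 (chr5:98438497-98439205), was 709 bp wide, close to the table median of 711 bp, and was centred 185 kb downstream in an intron of Cfap299. The start nearest to it was that of Mir703 and not that of Fgf5. At least 1 mESC enhancer was present for 76.8% of genes, so that Fgf5 stood at the median of 1. Its 0.709 kb of mESC enhancer bases was reached by 62.7% of genes, against a median of 1.18 kb. No mESC enhancer lay within 100 kb of the Fgf5 TSS, where the lower quartile of all genes was also 0 and the median was 1.

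None of the 6 EpiLC enhancers at Fgf5 overlapped an mESC enhancer by even 1 bp. Over the whole tables, 25.9% of EpiLC enhancers overlapped an mESC enhancer and 42.9% of mESC enhancers overlapped an EpiLC enhancer. Among the 7812 genes with at least 6 EpiLC enhancers, 1611 (20.6%) likewise had none that overlapped, so the lack of overlap is not rare. An arrangement with none centred upstream of the TSS was less frequent, in 219 of the same 7812 genes (2.80%). For Fgf5 it depends on the start used. Fgf5 EpiLC 1 covers the TSS and is centred 0.205 kb downstream of it. Another GENCODE M21 transcript of Fgf5 starts 0.228 kb downstream of that TSS, and from there this centre lies upstream. The chain also stood alone: the nearest EpiLC enhancer on the upstream side was 477 kb away and on the downstream side 236 kb away, and 8.02% and 17.7% of gaps in the table were as long. Just outside the window, the next EpiLC enhancer was centred 313 kb downstream (chr5:98566454-98567026, 573 bp), and it did overlap an mESC enhancer (chr5:98566708-98567149, 442 bp).

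**Figure D1:**
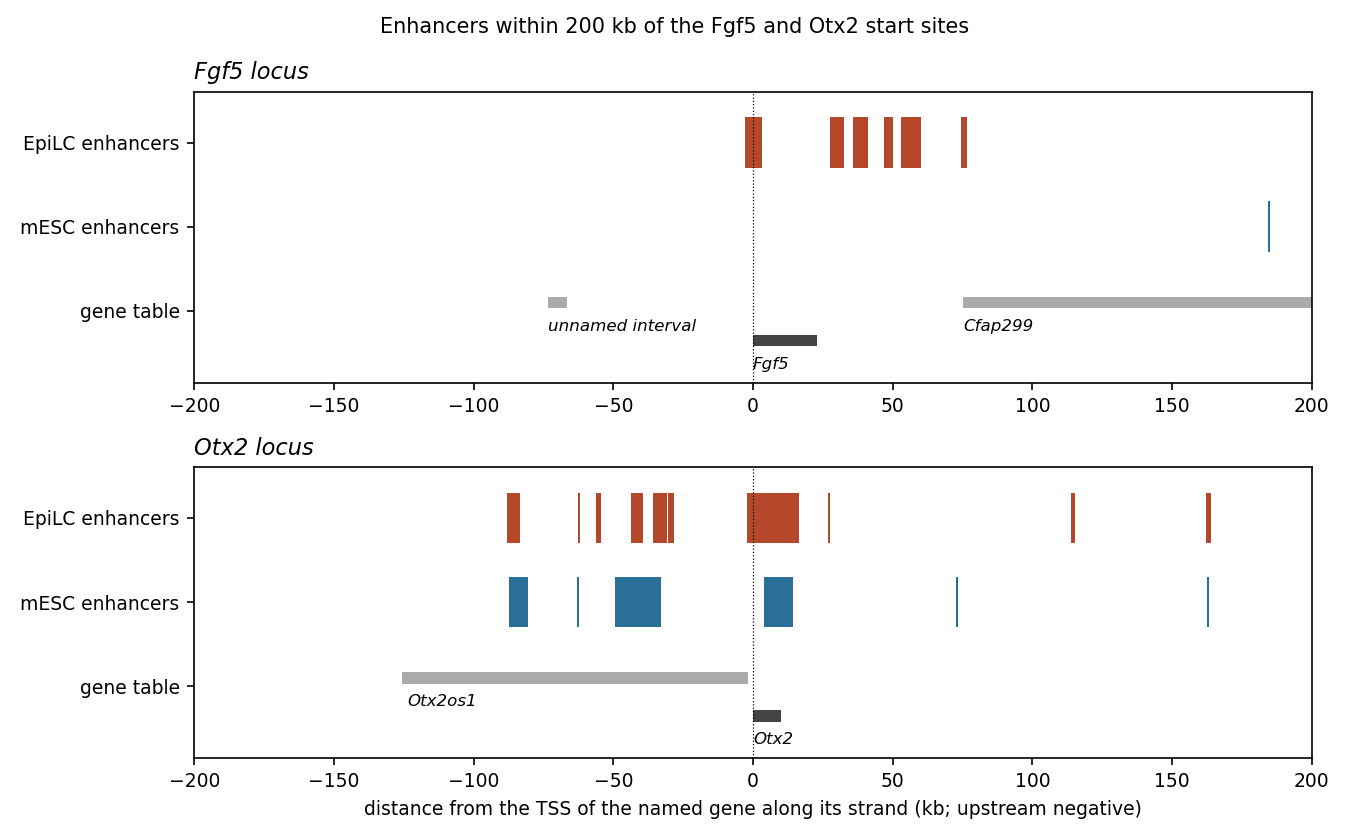
Enhancers around Fgf5 (top) and Otx2 (bottom), drawn to scale by distance from the TSS along the strand of the gene in kb, with EpiLC enhancers (red), mESC enhancers (blue) and intervals of the gene table (grey and black). The 6 EpiLC enhancers at Fgf5 run from the TSS to 75.7 kb downstream with no mESC enhancer below them, while at Otx2 6 of 10 EpiLC enhancers have an mESC enhancer below them.

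Otx2 (chr14:48657677-48667644, minus strand, 9968 bp, TSS at 48667644) had more enhancers in both tables, and they lay on both sides of the gene. Of its 10 EpiLC enhancers, 1 covered the TSS, 6 were centred upstream and 3 downstream. Otx2 EpiLC 4 (chr14:48651127-48669701) was 18575 bp wide and held the whole Otx2 interval, its TSS and the TSS of Otx2os1, a long noncoding RNA transcribed from the opposite strand (chr14:48669288-48793348, plus strand). Only 34 EpiLC enhancers (0.205%) were as wide, and 1.50% of genes lay whole within 1 EpiLC enhancer. A start site inside an EpiLC enhancer, which Fgf5 and Otx2 both had, was found for 14.2% of genes.

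The 6 upstream EpiLC enhancers were centred in introns of Otx2os1. Upstream distances are negative here. They were Otx2 EpiLC 5 (chr14:48696077-48698226, 2150 bp, -29.5 kb), Otx2 EpiLC 6 (chr14:48698352-48703501, 5150 bp, -33.3 kb) and Otx2 EpiLC 7 (chr14:48706852-48711401, 4550 bp, -41.5 kb). Farther out came Otx2 EpiLC 8 (chr14:48722127-48723776, 1650 bp, -55.3 kb), Otx2 EpiLC 9 (chr14:48729902-48730251, 350 bp, -62.4 kb) and Otx2 EpiLC 10 (chr14:48750877-48755776, 4900 bp, -85.7 kb). Downstream of the gene, Otx2 EpiLC 3 (chr14:48639927-48640726, 800 bp) was centred at 27.3 kb and Otx2 EpiLC 2 (chr14:48552502-48553876, 1375 bp) at 114 kb. Otx2 EpiLC 1 (chr14:48503877-48505401, 1525 bp) was centred at 163 kb in an intron of Tmem260.

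In the mESC table, 3 of the 6 enhancers at Otx2 were much wider than the table median of 711 bp. Otx2 mESC 4 (chr14:48700564-48717186, 16623 bp, -41.2 kb) was matched or exceeded by 1.03% of mESC enhancers. Otx2 mESC 3 (chr14:48653439-48663525, 10087 bp, 9.16 kb) lay over the 3' part of the gene, and Otx2 mESC 6 (chr14:48748266-48755029, 6764 bp, -84.0 kb) was the farthest upstream. The other 3 were short: Otx2 mESC 1 (chr14:48504499-48505170, 672 bp, 163 kb), Otx2 mESC 2 (chr14:48594334-48594957, 624 bp, 73.0 kb) and Otx2 mESC 5 (chr14:48729967-48730483, 517 bp, -62.6 kb). Otx2 mESC 3 belonged to the opening block of 231 rows of that table, which are listed out of the order of the rest and have a median width of 8667 bp, and 5.99% of genes had a row of that block within 200 kb. The nature of the block is not given in the sources used here.

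No mESC enhancer covered the Otx2 TSS at 48667644. The nearest edge, that of Otx2 mESC 3, stopped 4.12 kb inside the gene, whereas Otx2 EpiLC 4 held this mESC enhancer whole and went on past the start. A TSS inside an mESC enhancer was found for 1.17% of genes, so its absence at Otx2 and at Fgf5 is the usual state in that table. For Otx2 the absence depends on which start is taken. Shorter GENCODE M21 transcripts of Otx2 start at 48661932 and 48662872, farther into the gene. Both of these starts lie inside Otx2 mESC 3 and also inside Otx2 EpiLC 4.

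In contrast to Fgf5, most enhancers at Otx2 overlapped an enhancer of the other table by at least 1 bp. Otx2 EpiLC 1, 4, 6, 7, 9 and 10 overlapped an mESC enhancer, which made 6 of 10 (60.0%) against 25.9% of all EpiLC enhancers, and 5 of 6 mESC enhancers (83.3%) overlapped an EpiLC enhancer, against 42.9% of all. The shared stretches came to 22685 bp, which was 55.3% of the EpiLC and 64.3% of the mESC bases at the locus. Otx2 mESC 4 met Otx2 EpiLC 6 over 2938 bp and held all 4550 bp of Otx2 EpiLC 7. Otx2 mESC 6 and Otx2 EpiLC 10 shared 4153 bp, and the 672 bp of Otx2 mESC 1 lay inside Otx2 EpiLC 1. Otx2 EpiLC 2, 3, 5 and 8 and Otx2 mESC 2 had no counterpart. Where at least 50% of each region had to be shared, 3 of the 10 EpiLC enhancers met that demand, in place of 6, against 4.97% of the EpiLC table. With all regions set to 500 bp around their centres, or with centres within 1 kb, it was also 3 of 10, against 14.1% and 17.3% of the table.

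**Figure D2:**
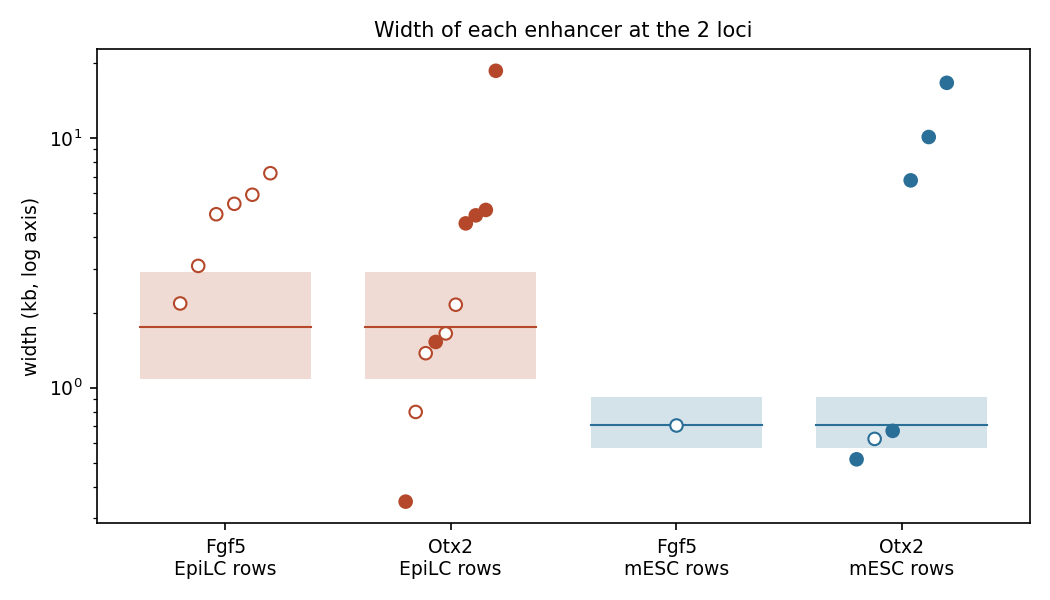
Width in kb (log axis) of each EpiLC enhancer (red) and mESC enhancer (blue) within 200 kb of Fgf5 or Otx2, 1 point each. Filled points overlap an enhancer of the other table, open points do not, and the line and band are the median and quartiles of the whole table. All 6 EpiLC points of Fgf5 are open and above the median of 1750 bp, and 3 of 6 mESC points of Otx2 lie far above the mESC quartiles.

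Otx2 stood higher among genes than Fgf5 in its number of enhancers in both tables, in the bases they covered and in how many were shared. At least 10 EpiLC enhancers within 200 kb were found for 10.0% of genes and at least 6 mESC enhancers for 2.34% of genes. With the opening block of the mESC table left out, Otx2 lost Otx2 mESC 3, and 5.57% of genes reached its lower count. Coverage was 41.0 kb by EpiLC enhancers, reached by 3.95% of genes, and 35.3 kb by mESC enhancers, reached by 0.337% of genes, against a median of 1.18 kb. Of the 2381 genes with as many EpiLC enhancers as Otx2, 67 (2.81%) had as large a share that overlapped an mESC enhancer. Of EpiLC enhancers without an mESC counterpart, Otx2 had 4, reached by 40.0% of genes, and Fgf5 had 6, reached by 22.1% of genes. The median gene had 3.

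**Figure D3:**
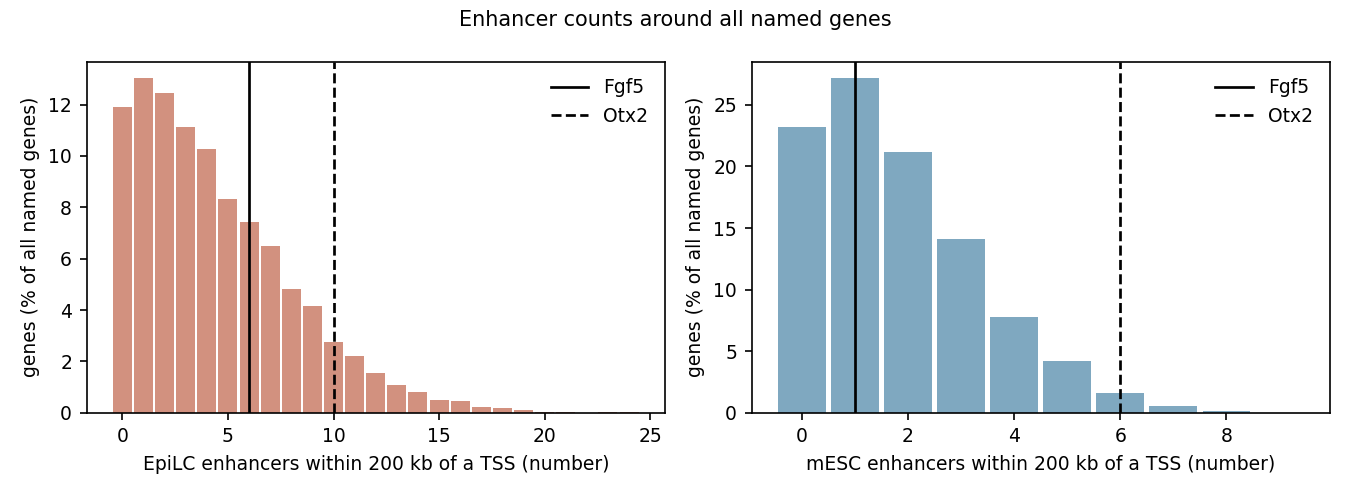
Distribution over all 23745 named genes of the number of EpiLC enhancers (left) and mESC enhancers (right) centred within 200 kb of the TSS, as a percentage of genes, with Fgf5 (solid line) and Otx2 (dashed line). Fgf5 lies at 6 EpiLC enhancers and 1 mESC enhancer and Otx2 at 10 and 6, against medians of 4 and 1.

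Counted outward from the TSS, both genes gathered EpiLC enhancers early. Within 50 kb Fgf5 had 4 and Otx2 5 EpiLC enhancers, where the median gene had 1 and the upper quartile was 2. Fgf5 reached 6 by 80 kb and added none up to 200 kb, so that the median gene, with 4 at 200 kb, came closer with distance. For mESC enhancers Otx2 had 5 within 100 kb, where the upper quartile was 1, and Fgf5 had 0. The windows ended in empty stretches: beyond the 10 EpiLC enhancers of Otx2, the next was centred 324 kb away, and beyond its 6 mESC enhancers the next was 313 kb away.

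**Figure D4:**
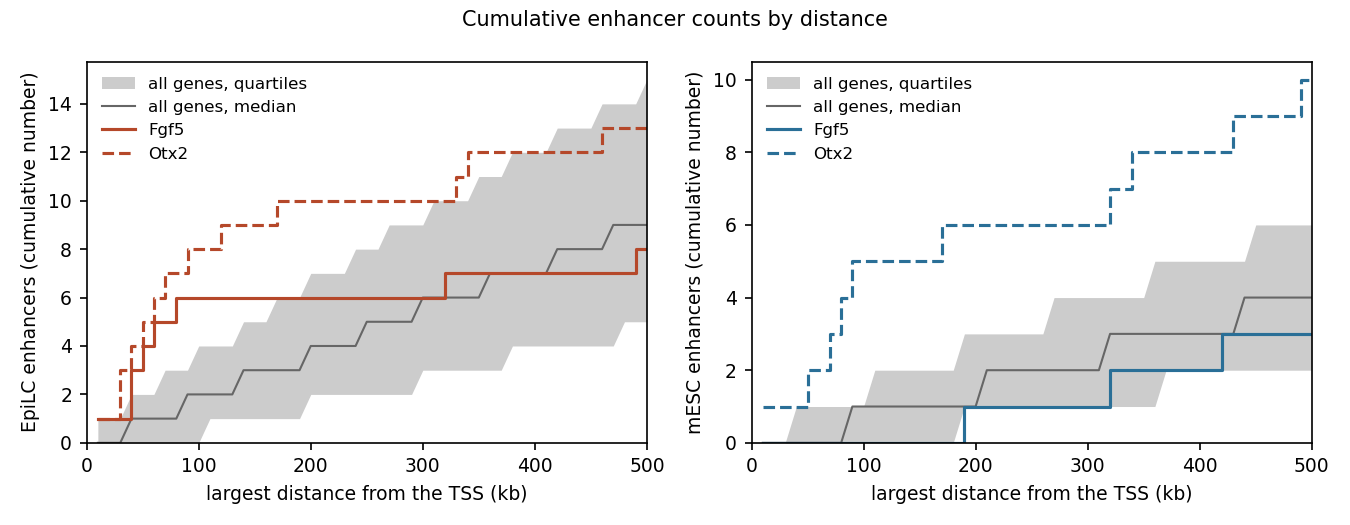
Cumulative number of EpiLC enhancers (left) and mESC enhancers (right) by distance of their centre from the TSS in kb, for Fgf5 (solid) and Otx2 (dashed), over the median (grey line) and quartiles (grey band) of all named genes. Fgf5 climbs to 6 EpiLC enhancers within 80 kb and then stays flat past 200 kb, while its mESC curve is at 0 within 170 kb.

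For most of these enhancers another gene had the nearer start. Of the 6 EpiLC enhancers at Fgf5, 2 had the Fgf5 TSS as the nearest start in the gene table and 4 had that of Cfap299, whose own 200-kb window held the same numbers, 6 EpiLC enhancers and 1 mESC enhancer. Of the 10 EpiLC enhancers at Otx2, 2 had the Otx2 TSS nearest and 6 that of Otx2os1, which starts at -1.64 kb from it on the opposite strand and likewise counted 10 EpiLC and 6 mESC enhancers. The remaining interval of the gene table that started within either window had no name and lay at -73.3 kb from Fgf5 (chr5:98180869-98187448). No measurement in the tables assigns an enhancer to a gene.

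Likeness to other genes was measured as the sum of absolute differences over 16 counts, the EpiLC and mESC enhancers in 8 bins of 50 kb along the strand, where 0 would be the same arrangement. The least distance from Fgf5 was 3, which 16 genes (0.0674%) shared. The 5 of these closest to Fgf5 in covered bases were Catsperd (a subunit of a sperm ion channel), Kmt5a (a histone H4 lysine methyltransferase), Higd2a, Ssna1 and Lpp, with 6 to 9 EpiLC and 0 to 2 mESC enhancers. The genes closest to Otx2 were H2-M5 at 3, Rnase10 at 4 and Nfyb (a subunit of the CCAAT-binding factor NF-Y) at 5. At 6 there were 11 genes, of which Gabbr1 (a GABA-B receptor subunit) and Rbpj (the DNA-binding effector of Notch signalling) were closest to Otx2 in covered bases, and 14 genes (0.0590%) lay at 6 or less. H2-M5 had 10 EpiLC and 5 mESC enhancers and Rbpj 7 and 7. The starts of H2-M5 and Gabbr1 lie near each other on chromosome 17, so their windows overlap.

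Among genes of the formative and primed epiblast, many enhancers in both tables were common. Of 29 listed genes 28 were analysed here, and 26 of these (92.9%) had at least 5 EpiLC enhancers within 200 kb, against 41.2% of all genes, while 18 (64.3%) had at least 3 mESC enhancers, against 28.5%. Their medians were 8 EpiLC and 3.5 mESC enhancers, against 4 and 1 over all genes. The start lay in an EpiLC enhancer for 16 of 28 (57.1%), against 14.2% of all genes, and 5 of 28, Otx2 among them, lay whole inside one, against 1.50%. The highest counts were those of Cldn6 (a tight-junction claudin, 16 EpiLC and 6 mESC enhancers), Etv4 (an ETS factor downstream of FGF signalling, 16 and 3), Grhl2 (a grainyhead factor of epithelial enhancers, 15 and 5) and Zic5 (a zinc-finger factor, 15 and 6). Some listed genes are neighbours and share enhancers, as Zic2 and Zic5 or Lefty1 and Lefty2 do.

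Otx2, with 10 EpiLC enhancers, was above the median of that list, and Fgf5, with 6, was below it. Of the 23 listed genes with at least 6 EpiLC enhancers, Fgf5 was the 1 gene with none shared with the mESC table, where 20.6% of all genes with as many had none; the others shared from 1 (Car14 and Tead2) to 10 (Zic5). Sall2, with 5, and Cer1, with 2, also had none shared.

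**Figure D5:**
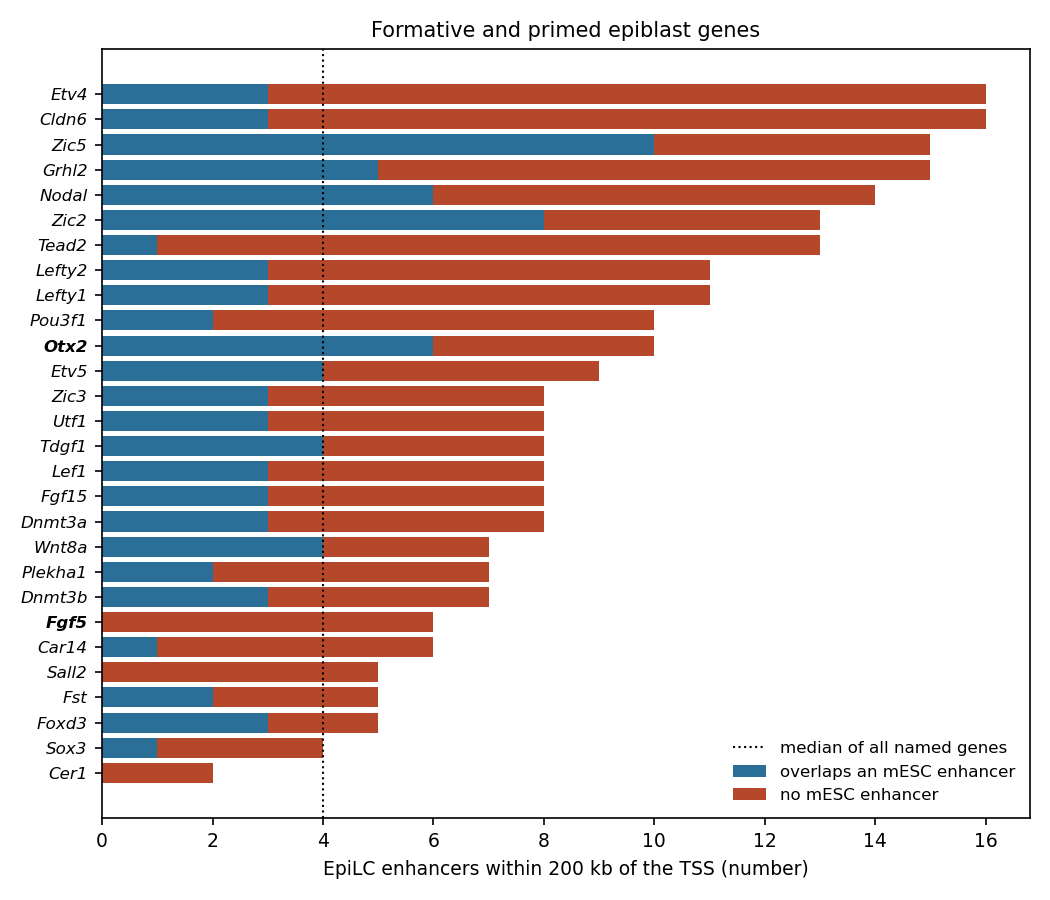
EpiLC enhancers within 200 kb of the TSS of the 28 formative and primed epiblast genes, split into those that overlap an mESC enhancer (blue) and those that do not (red), with the median of all named genes as a dotted line. Otx2 has 6 blue of 10, Fgf5 has 0 blue of 6, and 26 of 28 genes reach at least 5.

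For the FGF pathway, shares were above those of all genes in both tables. Of 28 listed ligands, receptors, adaptors and feedback regulators, 22 (78.6%) had at least 5 EpiLC enhancers, against 41.2% of all genes, and 15 (53.6%) at least 3 mESC enhancers, against 28.5%. Their medians were 7 and 3, against 4 and 1. Among ligands, Fgf4, the main FGF of naive cells, had 8 EpiLC enhancers, of which 3 were shared, and 4 mESC enhancers, whereas Fgf2 had 0 in both tables. Fgf3 and Fgf15 had the same counts as Fgf4, and whether these genes count the same enhancers was not examined. Fgf8, a ligand of gastrulation, had 7 EpiLC enhancers, 1 of them shared. Among receptors and adaptors, Fgfr1 had 8 EpiLC and 3 mESC enhancers, and Grb2, which links receptors to RAS, had 15 and 0. Feedback inhibitors were represented by Spry4 with 10 and 5, and FGF-responsive transcription factors by Etv5 with 9 and 4 and Etv4 with 16 and 3. Of the 20 genes of this list with at least 6 EpiLC enhancers, 3 (Fgf5, Grb2 and Spry1) had none shared, where 20.6% of all genes with as many EpiLC enhancers had none.

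Related homeobox genes mostly had fewer EpiLC enhancers than Otx2. Of 19 OTX and related homeobox genes, 8 (42.1%) had at least 5 EpiLC enhancers, close to the 41.2% of all genes, and 9 (47.4%) at least 3 mESC enhancers, against 28.5%. Their medians were 4 and 2, against 4 and 1. The TSS lay in an EpiLC enhancer for 1 of 19 (5.26%), which was Otx2, against 14.2% of all genes. Its paralogs Otx1 and Crx had 1 and 4 EpiLC enhancers and 3 and 1 mESC enhancers. More EpiLC enhancers than at Otx2 were found at Mixl1 (a homeobox gene of mesendoderm, 14 EpiLC and 2 mESC), and the next counts were those of Six6 (an eye-field factor, 9 and 4) and Gsc2 (8 and 1).

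Both loci held matches to the recognition letters of OTX factors. The motif TAATCC occurred in 5 of 6 EpiLC enhancers at Fgf5 (13 matches, 0.451 per kb) and in 6 of 10 at Otx2 (14 matches, 0.341 per kb), against 52.5% of all EpiLC enhancers and 0.469 per kb. In the central 300 bases it occurred in 1 of 6 and 1 of 10, against 12.0% of the table. The density at both loci was thus no higher than over the whole EpiLC table. For the 11 enhancers with a match, the one nearest the centre is shown with 20 bases on each side, on the strand that reads TAATCC, with the match in capitals.
Fgf5 EpiLC 1 (chr5:98255798-98255843, plus strand): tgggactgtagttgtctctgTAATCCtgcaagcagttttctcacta
Fgf5 EpiLC 2 (chr5:98284242-98284287, minus strand): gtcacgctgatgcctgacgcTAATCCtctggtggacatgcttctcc
Fgf5 EpiLC 3 (chr5:98293514-98293559, plus strand): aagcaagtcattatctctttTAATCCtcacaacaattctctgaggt
Fgf5 EpiLC 4 (chr5:98303911-98303956, minus strand): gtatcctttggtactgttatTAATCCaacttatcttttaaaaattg
Fgf5 EpiLC 5 (chr5:98308923-98308968, minus strand): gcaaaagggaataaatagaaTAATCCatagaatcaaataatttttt
Otx2 EpiLC 4 (chr14:48661974-48662019, minus strand): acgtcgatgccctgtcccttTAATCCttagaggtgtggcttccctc
Otx2 EpiLC 6 (chr14:48699833-48699878, plus strand): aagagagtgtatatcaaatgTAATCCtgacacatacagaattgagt
Otx2 EpiLC 7 (chr14:48707252-48707297, minus strand): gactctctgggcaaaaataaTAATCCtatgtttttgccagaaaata
Otx2 EpiLC 8 (chr14:48722520-48722565, minus strand): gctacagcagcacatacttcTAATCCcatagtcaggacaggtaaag
Otx2 EpiLC 9 (chr14:48730058-48730103, minus strand): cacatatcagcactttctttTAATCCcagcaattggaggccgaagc
Otx2 EpiLC 10 (chr14:48752901-48752946, minus strand): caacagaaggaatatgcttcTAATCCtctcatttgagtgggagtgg

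The other 8 motifs, searched on both strands, were POU (ATGCAAAT), SOX (ACAATG), ZIC (CAGCAGG), TCF-LEF (CTTTGAT), ETS (CCGGAAGT), GRHL (AACCGGTT), ESRRB (TCAAGGTCA) and KLF (GGGTGTGG). SOX letters were in the central 300 bases of 6 of 10 EpiLC enhancers at Otx2 and of 0 of 6 at Fgf5, against 14.5% of the EpiLC table, and over whole enhancers in 8 of 10 and 5 of 6, against 57.2%. POU letters were central in 1 enhancer at each locus, against 3.37% of the table. At Fgf5 EpiLC 3 this was a single match, and Otx2 EpiLC 2 held a pair of matches in opposite orientation, both printed above. KLF letters were in 3 of 6 EpiLC enhancers at Fgf5 and in none of the 10 at Otx2, against 19.1% of the table. The Fgf5 enhancers are wide, and per length their KLF density was 0.104 matches per kb, as over the table. ESRRB letters were in 2 of 6 and none of 10, against 7.85%, with 2 matches in all at Fgf5 (0.0694 per kb, against 0.0373 per kb). ETS letters were in 2 of 6 and 1 of 10, against 5.33%, at 0.0694 and 0.0244 per kb against 0.0253 per kb. ZIC letters were in 4 of 6 and 6 of 10, against 51.4%, but at 0.3125 and 0.219 per kb, against 0.391 per kb. TCF-LEF letters were in 3 of 6 and 4 of 10, against 27.4%, at 0.208 and 0.195 per kb, against 0.157 per kb. GRHL letters were in none, against 1.44%. SOX density was 0.486 per kb at Fgf5 and 0.658 per kb at Otx2, against 0.520 per kb over the table. With 9 motifs counted at each locus, a share that stands out at 1 of them is a description of these sequences, and a match is not evidence that a factor binds.

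The mESC enhancers held the same letters in part. Fgf5 mESC 1 had 1 OTX and 1 SOX match, both within the sequence printed above. Of the 6 mESC enhancers at Otx2, POU and TCF-LEF letters each occurred in 5, against 18.0% and 21.8% of the mESC table, and OTX letters in 4, against 35.5%, but 3 of the 6 were far wider than the table median and so had more bases to match. Per kb there were 0.142 POU, 0.397 TCF-LEF and 0.283 OTX matches, against 0.129, 0.195 and 0.475 over the mESC table. SOX letters occurred in all 6, against 51.9% of the mESC table, but at 0.567 per kb, against 0.716 per kb. No ESRRB or KLF letters occurred in the 6. Over the mESC table they were in 8.05% and 16.02% of enhancers, at 0.0530 and 0.1246 per kb. The stretch shared by Otx2 EpiLC 9 and Otx2 mESC 5 carried 1 OTX and 1 SOX match.

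The starts of the 2 genes differed in base composition. The printed Fgf5 sequence was 68.3% G and C and that of Otx2 41.7%, around a median of 52.7% over 32851 RefSeq promoters of the same length, of which 12.0% were at least as rich as Fgf5 and 86.6% at least as rich as Otx2. None of the 9 motifs occurred in either sequence; over all promoters they occurred in shares from 0.146% (GRHL) to 12.6% (SOX), with 7.06% for OTX. Across the enhancers themselves, G and C made up 41.6% to 48.8% at Fgf5 EpiLC enhancers and 42.0% to 47.7% at those of Otx2, against a table median of 47.7%. The ratio of observed to expected CpG was highest in the 3 EpiLC enhancers that covered a start, at 0.624 in Fgf5 EpiLC 6, 0.469 in Otx2 EpiLC 4 and 0.453 in Fgf5 EpiLC 1, against a table median of 0.244. Repeats masked in the assembly ranged from 4.95% in Otx2 EpiLC 2 to 44.4% in Otx2 EpiLC 5, against a median of 19.7%. They took up 43.5% of both Fgf5 EpiLC 5 and Otx2 EpiLC 8. Of all EpiLC enhancers, 14.1%, 14.4% and 14.5% were at least as rich as Otx2 EpiLC 5, Fgf5 EpiLC 5 and Otx2 EpiLC 8.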

How the data were processed

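The series measured 52 chromatin immunoprecipitation libraries of EpiLCs and mESCs. Per the labels' protocols, cells were fixed with formaldehyde, after disuccinimidyl glutarate for Med1. Per the submitters' processing notes, the tools were bedtools 2.29.2, Bowtie2 2.3.4.1 and Trimmomatic 0.38, with dm6 and mm10 as builds, and no source used here states their settings. The 3 deposited tables hold coordinates only (chromosome, start, end and strand). Per the series' design text, the authors took EpiLC enhancers (H3K27ac, H3K4me1 and p300 peaks) and mESC enhancers from earlier studies and lifted them over to mm10, and took the gene intervals from earlier work. The planned limma test of mutant against control signal needs a value per library and was not run.

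From these tables the following was computed with Python 3.11.15, pandas 2.3.3 and numpy 2.4.6. Gene starts were read as counting from 0, which gave 12038 exact RefSeq matches, against 329 when read as counting from 1, and enhancer starts were read likewise. Intervals were named by an exact match to RefSeq or GENCODE M21, or otherwise by a same-strand annotation whose intersection with the interval was 0.8 or more of their union, as for Otx2, and 1 interval was kept per symbol. The TSS is the 5' end of the interval. An enhancer belongs to a window if its centre lies within 200 kb of the TSS, and an overlap is at least 1 bp. Annotation at a centre is from GENCODE M21, with a promoter within 1 kb of an annotated TSS. Promoter sequences are RefSeq's, and enhancer sequences were read from the GRCm38.p6 assembly with pyfaidx 0.9.0.4. Both genes matched a RefSeq promoter by symbol and start. The counting was tested on simulated data.

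Genes named are Fgf5 and Otx2, genes starting within 200 kb of them, 5 genes of least distance in 16 counts (leaving out starts within 500 kb, with ties resolved by the smaller difference in covered bases, then by name), and up to 4 genes of each list with most EpiLC enhancers. Others in the lists were picked after their values were seen, for their role, their counts, their shared enhancers or as neighbours. They are Fgf2, Fgf3, Fgf4, Fgf8, Fgf15, Fgfr1, Spry1, Otx1, Crx, Sall2, Cer1, Car14, Tead2, Zic2, Lefty1 and Lefty2. Fgf5, Otx2 and the 3 gene lists were chosen with earlier results of these data known, so no list gives independent support. No named interval was longer than the longest annotated gene. Alternatives were other distances, overlap rules, start sites, nearest-start assignment, promoter removal, motif windows and the mESC table without its opening block.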

Additional observations from a re-analysis of the deposited data

How the results depend on the processing

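There were 50 alternatives to 12 results. Of these, 25 stayed within 1.5 times the count or within the 95% binomial interval of the share, and 25 did not. That interval served only as a yardstick, as the genes are not independent and the region sets have no replicates. Some of the 25 that stayed could not have moved. Dropping promoter-centred enhancers removed none from the mESC enhancers of Fgf5 or from either set of Otx2. The overlap rules for Fgf5 and the removal of very long intervals, given below, were likewise fixed. Within 50 kb in place of 200 kb, Fgf5 had 0 mESC enhancers and Otx2 had 5 EpiLC and 2 mESC enhancers. Within 100 kb Fgf5 had 0 mESC enhancers. Genes with at least as many enhancers made up 10.4% (EpiLC) and 100% (mESC) for Fgf5, and 3.63% and 0.480% for Otx2. The 100% follows from the count of 0, which every gene reaches. Within 500 kb there were 3 mESC enhancers at Fgf5 and 10 at Otx2, and the same shares were 59.1% and 71.3% for Fgf5, and 33.3% and 4.24% for Otx2. Counting an enhancer only where the gene's TSS was the nearest left 2 EpiLC and 0 mESC enhancers for Fgf5, and 2 and 2 for Otx2. Without the opening block of the mESC table, 76.1% of genes reached the mESC count of Fgf5 and 5.57% that of Otx2. The Otx2 count was itself lower there, because Otx2 mESC 3 is in that block. Otx2 kept 3 shared EpiLC enhancers of 10 under each of the other overlap rules. These were 50% of both regions, equal widths of 500 bp and centres within 1 kb, met by 4.97%, 14.1% and 17.3% of EpiLC enhancers. Fgf5 had 0 of 6 under each. This was fixed in advance, as the 1 mESC enhancer of its window was centred 185 kb from the TSS. An OTX match anywhere in the enhancer, not in its central 300 bases, was found in 5 at Fgf5 and 6 at Otx2. The cause of these shifts was not tested beyond what each rule counts. Leaving out very long gene intervals changed no share, as there were 0 among the named genes. No paired analysis was possible because the tables hold no value per library. Depth is unknown, and leaving out replicates could not be done for the same reason.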

Other observations

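The ends of the EpiLC enhancers fall on a grid. Of the 16576 rows, 16276 (98.2%) had starts that left the same remainder on division by 25, and 96.7% had widths that were multiples of 25 bp, against 3.73% and 3.67% in the mESC table. All 6 EpiLC enhancers at Fgf5 and all 10 at Otx2 lay on that grid. The series' design text says that both sets were lifted over to mm10, and how the grid relates to that step was not tested. Boundaries of the EpiLC enhancers, including the printed ones, are thus known in steps of 25 bp, and the 285 bp and 672 bp overlaps at Otx2 inherit 1 such boundary or none.

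Of the transcripts that GENCODE M21 gives for Otx2, 1 starts at 48673819, which is 6.17 kb upstream of the start used here, and outside Otx2 EpiLC 4, which ends at 48669701. Counting from that start left 10 EpiLC and 6 mESC enhancers within 200 kb. Other Otx2 transcripts start downstream of the start used here. Those starting at 48661932 and 48662872 begin inside Otx2 mESC 3, which spans 48653439 to 48663525.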
